A study of Mus musculus with 6 samples.

Results

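The vascular endothelial growth factor (VEGF) genes were followed in glomerular endothelial cells (GEC) of diabetic and normal mice. The set held 8 genes, namely the receptors Kdr, Flt1 and Flt4, the ligands Vegfa, Vegfb, Vegfc and Pgf, and Esm1, a gene that VEGF induces. They were chosen by gene symbol from the 19938 genes that had a probeset with a single annotated symbol. Each of the 8 genes had 1 such probeset on the array. The log2 changes of receptors and tested ligands lay between -0.28 and 0.23, while Esm1 signal was 4.56-fold higher in db/db GEC. Its interval from limma ran from 2.02 to 10.3 and pooled groups of unlike spread. None of the 7 genes that could be tested passed limma's test when adjusted over all 20661 probesets.

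VEGF proteins are secreted dimers that bind receptor tyrosine kinases on endothelial cells. In the glomerulus podocytes make VEGF-A, which crosses the filtration barrier to the endothelium, where it keeps the capillaries alive and fenestrated. Kdr is the main signalling receptor for VEGF-A, Flt1 binds VEGF-A, VEGF-B and placental growth factor tightly but signals weakly and has a soluble form that traps ligand, and Flt4 is the receptor for VEGF-C and VEGF-D. Esm1 encodes endocan, a secreted proteoglycan of sprouting endothelium.

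The db/db mice, a model of type 2 diabetes with obesity, have no functional leptin receptor, and the normal mice carried the +/+ genotype. All animals were 7 months old and carried Tie2-GFP, a transgene in which the Tie2 (Tek) promoter drives green fluorescence in endothelial cells. Glomeruli were sieved and dissociated, and fluorescent cells were sorted. There were 3 db/db and 3 normal samples with 1 Affymetrix whole-transcript array each, called here by group and replicate number. The labels call them biological replicates, whether a sample pooled several mice is not given in the sources used here, and the small number of arrays sets the precision. Signals are log2 values whose array medians lay between 7.00 and 7.04, and pairwise correlation across probesets ran from 0.954 to 0.971 within groups and from 0.957 to 0.97 between them. Markers of endothelium gave high signal, with all 10 pan-endothelial genes above a level of 100 on the linear scale and a summed linear signal of 46700 to 48300 in db/db and 44600 to 45700 in normal arrays. Tek itself averaged 12.31 ± 0.16 in db/db and 12.64 ± 0.12 in normal GEC (log2, mean ± SD, n = 3 per group). In such bulk samples fewer cells of a type and less RNA per cell cannot be told apart.

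The sequences just upstream of the transcription starts are shown first, because the base composition upstream of Esm1 differs from that of the other 7 genes. RefSeq (GRCm38.p6) listed a promoter for all 8 genes. The 250 bases before the start are given 5′ to 3′ on the strand of the gene for Esm1, the receptors Kdr and Flt1 and the ligand Vegfa. Capitals mark matches, on either strand, to the Sp1 GC box (GGGCGG), an ETS core (AGGAAG), the hypoxia response core (ACGTG), an AP-1 site (TGANTCA), a cAMP response element (TGACGTCA) and a TATA box (TATAAA). The Esm1 window lies at chr13:113209409-113209658 on the plus strand, and the windows of Kdr at chr5:75978456-75978705, of Flt1 at chr5:147726012-147726261 and of Vegfa at chr17:46032378-46032627 lie on the minus strand.
Esm1: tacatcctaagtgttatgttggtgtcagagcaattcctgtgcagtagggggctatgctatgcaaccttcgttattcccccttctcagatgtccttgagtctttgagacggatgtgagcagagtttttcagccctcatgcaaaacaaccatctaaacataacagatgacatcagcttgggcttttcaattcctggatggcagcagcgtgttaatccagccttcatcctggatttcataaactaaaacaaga
Kdr: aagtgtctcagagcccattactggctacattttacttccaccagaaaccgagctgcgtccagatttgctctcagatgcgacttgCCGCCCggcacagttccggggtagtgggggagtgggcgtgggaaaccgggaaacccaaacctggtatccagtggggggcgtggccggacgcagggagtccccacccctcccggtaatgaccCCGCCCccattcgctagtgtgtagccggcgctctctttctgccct
Flt1: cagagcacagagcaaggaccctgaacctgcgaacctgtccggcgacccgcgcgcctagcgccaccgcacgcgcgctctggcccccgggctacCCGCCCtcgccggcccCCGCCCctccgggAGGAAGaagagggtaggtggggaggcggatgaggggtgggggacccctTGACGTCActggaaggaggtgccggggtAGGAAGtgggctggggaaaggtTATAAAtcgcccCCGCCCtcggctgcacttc
Vegfa: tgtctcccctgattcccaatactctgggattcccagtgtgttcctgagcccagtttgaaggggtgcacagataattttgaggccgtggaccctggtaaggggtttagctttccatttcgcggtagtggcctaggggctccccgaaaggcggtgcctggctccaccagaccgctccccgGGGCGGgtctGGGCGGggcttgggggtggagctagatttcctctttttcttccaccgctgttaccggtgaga

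The Esm1 window held 44.0% G and C, above 21.1% of all promoters, and no match to any of the 6 motifs. The windows of the other 7 genes held 59.2% (Vegfa) to 76.4% (Vegfb), and each had 2 to 4 GC boxes, a motif found in 32.7% of the 32851 promoter windows of the same length, whose median content was 52.4%. Flt1 alone of the 8 genes also had a TATA box, 31 bases before the start, a cAMP response element and 2 ETS cores, which were found in 12.4%, 1.55% and 29.5% of all windows. The hypoxia response core and the AP-1 site, in 16.6% and 6.75% of all windows, were in none of the 8. Such matches describe the letters of these windows and do not show binding.

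Kdr signal lay within the top 1% of probesets and varied little. It was 13.18, 13.18 and 13.18 in db/db replicates 1 to 3, against 13.10, 13.06 and 13.10 in normal replicates 1 to 3. Every db/db array was above every normal array, by a gap of 0.077 between the nearest arrays. The log2 change was 0.10 ± 0.07 (limma's moderated SE, n = 3 per group), a 1.07-fold difference with an interval from 0.948 to 1.21, and did not pass (adjusted p = 0.873). The residual SD of Kdr, its spread within groups, was 0.0177, lower than in all but 0.106% of tested probesets, and 439 probesets within 0.5 of its level had a median of 0.068. Among those 439 probesets 20.3% had a mean difference at least as large as that of Kdr.

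Flt1, the decoy-like receptor, had slightly lower signal in db/db GEC. Its values were 12.58, 12.77 and 12.75 in db/db replicates 1 to 3, against 12.78, 12.88 and 12.80 in normal replicates. The groups did not overlap, but the gap was 0.003, and with each array centred on its median they overlapped. The log2 change of -0.12 ± 0.09, with an interval from -0.34 to 0.10, did not pass (adjusted p = 0.876) and was -0.06 without diabetic replicate 1. The annotation used here does not say whether the probeset covers the soluble form, the membrane form or both.

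Flt4, known above all from lymphatic endothelium, was above the level of 100 in all 6 arrays. It measured 9.30, 9.15 and 9.05 in db/db replicates 1 to 3, against 9.01, 9.14 and 8.68 in normal replicates. The groups overlapped, with normal replicate 3 the lowest of the 6 arrays. The log2 change was 0.23 ± 0.15 with an interval from -0.14 to 0.59 (adjusted p = 0.849). It was 0.10 without normal replicate 3 and 0.33 without normal replicate 2. Of 5 lymphatic markers 4 had a probeset, and their summed linear signal was 522 to 545 in db/db and 407 to 548 in normal arrays. Prox1, the transcription factor that defines lymphatic endothelium, and Reln were below the level of 100 in every array, while Lyve1, a hyaluronan receptor, averaged 8.15 ± 0.12 in db/db and 7.72 ± 0.24 in normal GEC (SD, n = 3 per group).

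**Figure D1:**
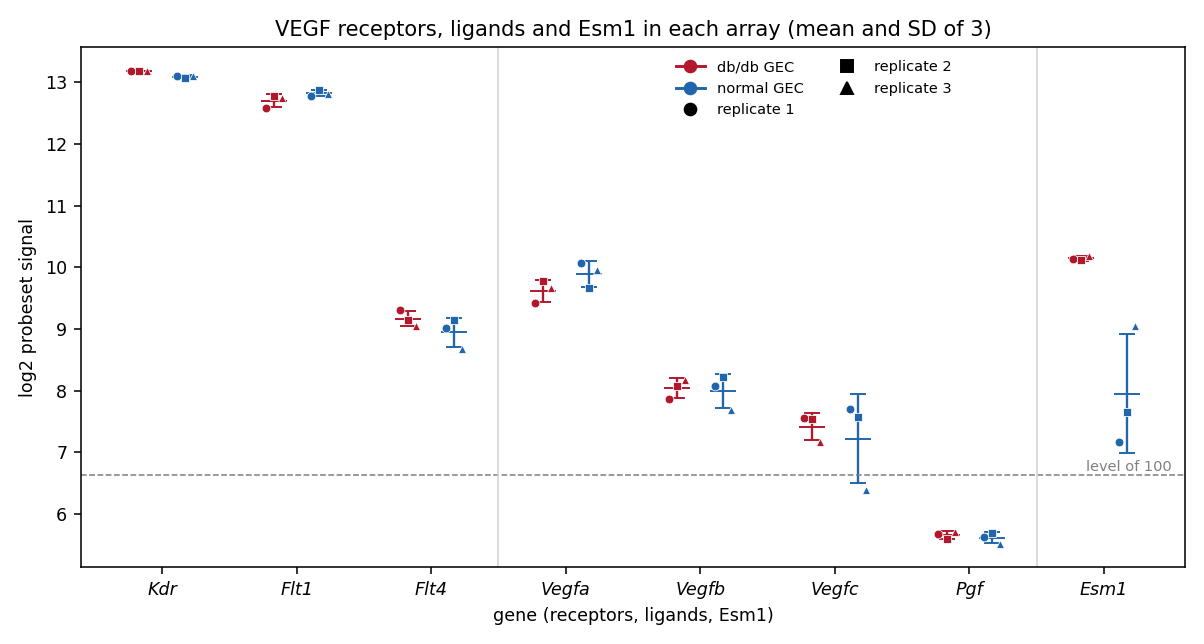
Log2 probeset signal (vertical axis) of the 8 genes in each array (points, by replicate), with the mean and SD of 3 db/db (red) and 3 normal (blue) arrays; the dashed line is the level of 100 on the linear scale. The db/db arrays of Esm1 sit between 10.11 and 10.19 and its normal arrays between 7.17 and 9.04, whereas Kdr and Flt1 are the other genes whose groups do not overlap, and heights of different genes are not compared because probesets differ in response.

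Among the ligands, Vegfa had the lower signal in db/db GEC. It was 9.42, 9.77 and 9.66 in db/db replicates 1 to 3, against 10.07, 9.66 and 9.95 in normal replicates. The groups overlapped, since normal replicate 2 lay among the db/db arrays. The log2 change was -0.28 ± 0.15 with an interval from -0.65 to 0.10 (adjusted p = 0.831). It was -0.18 without diabetic replicate 1 and -0.19 without normal replicate 1. Without normal replicate 2 it was -0.39 with an interval from -0.75 to -0.04 (limma, adjusted p = 0.75). Markers of podocytes, which make VEGF-A in the glomerulus, were measured beside it. Of 12 podocyte markers 9 had a probeset and 6 passed the level filter, with a summed linear signal of 7140 to 7270 in db/db and 7640 to 8270 in normal arrays. Podxl and Cd2ap, which endothelium also expresses, made up most of that sum, and the other 7 summed to 765 to 815 in db/db and 713 to 765 in normal arrays. Ptpro, Tcf21 and Plce1 were below the level of 100 in every array, and Nphs1, the slit diaphragm protein nephrin, averaged 7.05 ± 0.14 in db/db and 6.98 ± 0.11 in normal GEC (SD, n = 3 per group). The part of podocyte RNA in the Vegfa signal was not tested.

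Vegfb, a ligand of Flt1 linked to endothelial fatty acid uptake, had nearly equal means. It measured 7.87, 8.08 and 8.18 in db/db replicates 1 to 3, against 8.08, 8.22 and 7.69 in normal replicates. The groups overlapped over most of their range, and the log2 change of 0.05 ± 0.17 (adjusted p = 0.979) had an interval from -0.36 to 0.46. Its direction turned without normal replicate 3 (-0.10) or diabetic replicate 3 (-0.02).

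Vegfc, the ligand of Flt4, was at 7.55, 7.54 and 7.16 in db/db replicates 1 to 3, against 7.71, 7.57 and 6.39 in normal replicates. Normal replicate 3 stood below the other 5 arrays and was the 1 array under the level of 100. The log2 change of 0.19 ± 0.37 (adjusted p = 0.956) had an interval from -0.73 to 1.11 and was -0.23 without normal replicate 3. Pgf, placental growth factor, was below the level of 100 in every array and was not tested. Its signal was 5.67, 5.59 and 5.71 in db/db replicates 1 to 3 and 5.63, 5.70 and 5.52 in normal replicates, a difference of 0.04. Vegfd, the remaining ligand of Flt4, averaged 6.52 ± 0.26 in db/db and 6.74 ± 0.28 in normal GEC (SD, n = 3 per group) and reached the level of 100 in 3 of 6 arrays.

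Esm1 was the member with the large difference. Its signal was 10.13, 10.11 and 10.19 in db/db replicates 1 to 3, against 7.17, 7.65 and 9.04 in normal replicates. The db/db arrays lay close together, whereas the normal arrays were far apart, and the nearest arrays of the groups were 1.07 apart. The means were 10.15 ± 0.04 in db/db and 7.96 ± 0.97 in normal GEC (SD, n = 3 per group). The log2 change was 2.19 ± 0.48 with an interval from 1.01 to 3.37 (limma, adjusted p = 0.534 over all probesets). Among 12763 genes it ranked 7 by height of the change and 89 by p. With limma 0 of 20661 probesets (0.0%) had an adjusted p under 0.05, the smallest being 0.203, and 1320 (6.39%) had an unadjusted p under 0.05, of which 719 (3.48%) were higher and 601 (2.91%) lower in db/db GEC. The methods' t-test gave 0 after adjustment and 732 higher and 548 lower before it, and 1.51% of probesets passed its unadjusted threshold together with a change of over 1.5-fold. Of these tests, Esm1 passed the unadjusted threshold with both and Kdr with the methods' t-test alone. With an intensity trend in limma Kdr passed it too (unadjusted p = 0.0121, adjusted p = 0.668).

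Normal replicate 3 had the highest Esm1 signal of the normal arrays. Without it the log2 change was 2.73 ± 0.17 (adjusted p = 0.167), and without any other array it lay between 1.80 and 2.21. Signal of other marker genes is given beside it, none of which passed the adjusted test. The summed linear signal of 6 glomerular endothelium markers, among them Scn7a, Ehd3 and Sema5a, was 16200 to 20100 in db/db and 20300 to 25300 in normal arrays, and 4 of the 6 were lower in every db/db array, against 5.31% of all probesets. The study drew several of them from comparisons that involved normal GEC. Markers of distal nephron and collecting duct summed to 594 to 726 in db/db and 464 to 565 in normal arrays, with Slc12a1 below the level of 100 in every array. Among them Calb1, which reached that level in 2 arrays, averaged 113.5 in db/db and 43.98 in normal arrays (linear). Summed signal overlapped between the groups for markers of mesangial cells and pericytes, proximal tubule, leukocytes, and erythrocytes and platelets. Within the leukocyte list 1 marker was higher in every db/db array, Cd68 (linear means 186.9 in db/db and 105.7 in normal arrays). Another 2 were lower in every db/db array, Cd14 (321.5 and 588.5) and Cd79a, which stayed below the level of 100. Of all probesets tested 7.01% were higher and 5.31% lower in every db/db array. The part of any of these marker groups in the Esm1 result was not tested.

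**Figure D2:**
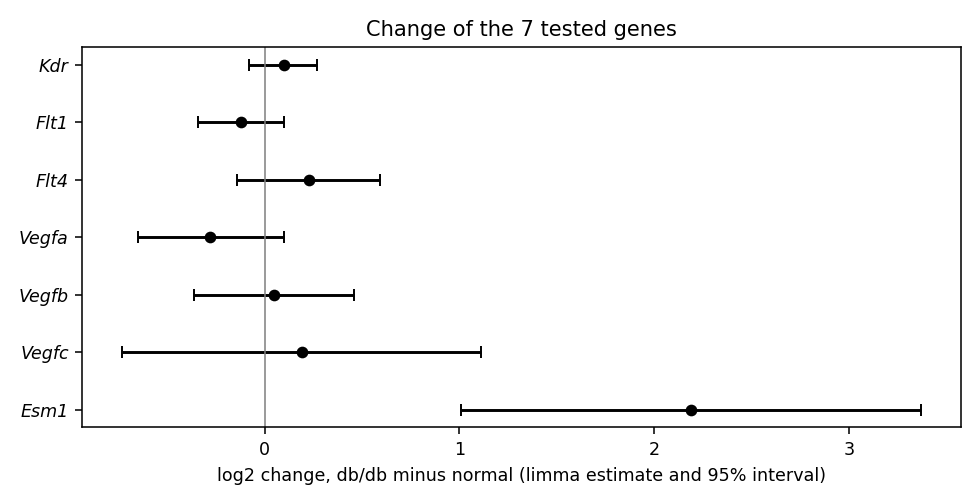
Log2 change, db/db minus normal (horizontal axis), of the 7 tested genes with limma's estimate (point) and its 95% interval (bar). The intervals of the receptors and ligands include 0, and that of Esm1 runs from 1.01 to 3.37.

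Set side by side by role, the 3 receptors had log2 changes from -0.12 to 0.23 with a median of 0.10, and the 3 tested ligands had changes from -0.28 to 0.19 with a median of 0.05. The median over all 12763 genes tested was 0.01. Of the 7 tested members 3 (Kdr, Flt1 and Esm1) had groups that did not overlap (Flt1 as deposited but not with median centring), against 12.3% of all probesets tested (7.01% higher and 5.31% lower in db/db). Each of the 4 ligands had overlapping groups. The intervals of receptors and ligands did not exclude moderate changes, such as the 1.51-fold increase at the upper bound of Flt4.

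Differences between members were also taken within each array, where a scaling factor of the array cancels. The value itself has no meaning across probesets, so what is compared is its shift between the groups. Kdr minus Flt1 was 0.60, 0.40 and 0.44 in db/db replicates 1 to 3, against 0.32, 0.18 and 0.30 in normal replicates. Every db/db array was above every normal array, with a mean shift of 0.21, a 1.16-fold higher ratio of Kdr to Flt1. Kdr minus Vegfa was 3.76, 3.41 and 3.52 in db/db replicates, against 3.03, 3.40 and 3.14 in normal replicates. These groups were separate too, with a mean shift of 0.37. Flt1 minus Flt4 was 3.27, 3.62 and 3.69 in db/db replicates, against 3.77, 3.73 and 4.12 in normal replicates, a shift of -0.34 with no overlap. Of the 15 pairs without Esm1 these 3 did not overlap. When Kdr, Flt1 or Vegfa was set against every other tested gene in the same way, the groups did not overlap for 18.1%, 18.8% and 19.5% of genes, so 3 of 15 is near the background. Of the 6 pairs with Esm1 5 did not overlap, against 98.2% when Esm1 was set against every other tested gene, and the exception was Vegfc. With 3 arrays a group the smallest two-sided p of an exact permutation test is 0.1.

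**Figure D3:**
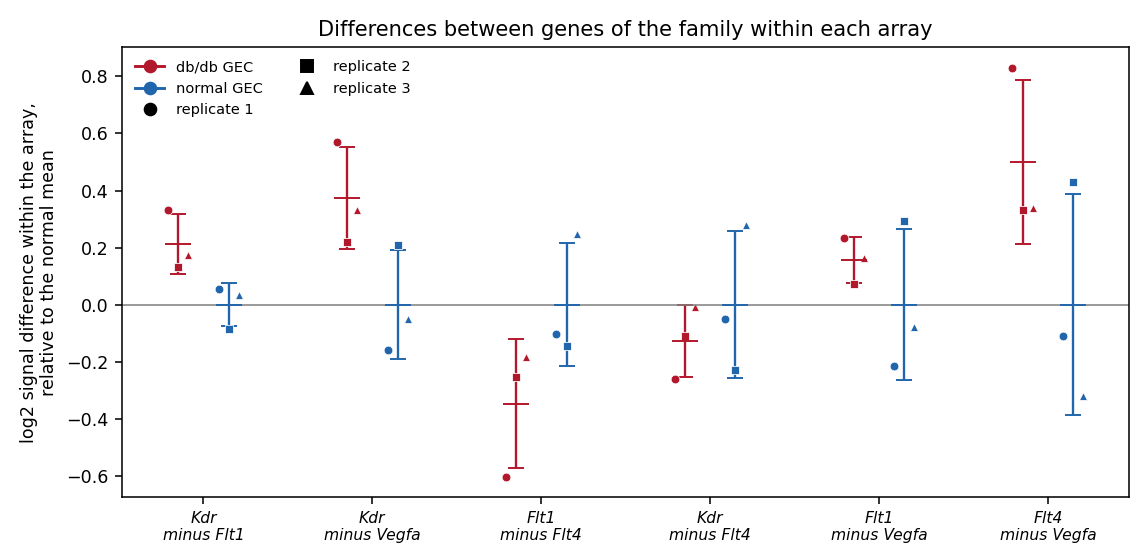
Within-array log2 signal difference, shifted so that the normal mean of each pair is 0 (vertical axis), of 6 gene pairs (horizontal axis) for 3 db/db (red) and 3 normal (blue) arrays with mean and SD. Kdr minus Flt1 and Kdr minus Vegfa were higher and Flt1 minus Flt4 was lower in every db/db array, and the other 3 pairs overlap.

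Genes that act around the receptors were taken next. Because 0 of all 20661 probesets passed limma's adjusted test, the count of genes that rose or fell was 0 in each list. Of 25 co-receptors, receptor regulators and ligand-processing enzymes 23 were tested, 0 rose and 0 fell, and the median log2 change was -0.03 against 0.01 for all genes. By unadjusted p 1 was under 0.05, near the background of 6.39% of all probesets. Cdh5, the cadherin that binds Kdr at endothelial junctions, had the smallest p, at 13.06 ± 0.03 in db/db and 12.85 ± 0.07 in normal GEC (log2 change 0.21 ± 0.08, adjusted p = 0.754). Pcsk5, a protease that can process VEGF-C, was at 8.66 ± 0.14 in db/db and 8.87 ± 0.07 in normal GEC (-0.22 ± 0.10, adjusted p = 0.805). The co-receptor Nrp1 had a log2 change of -0.02 ± 0.08 and Nrp2 of 0.36 ± 0.28, with intervals from -0.23 to 0.18 and from -0.34 to 1.05.

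Of 47 genes of the pathway inside the cell 40 had a probeset of their own and 38 were tested, and 0 rose and 0 fell in limma's test, while 2 with higher and 3 with lower signal had an unadjusted p under 0.05, against 3.48% and 2.91% of all probesets. Their median change was 0.01, the same as that of all genes to 2 decimals. The smallest p belonged to Mapk14, the stress kinase p38 alpha that carries VEGF signals to the cytoskeleton, at 9.31 ± 0.19 in db/db and 9.76 ± 0.09 in normal GEC (log2 change -0.45 ± 0.12, adjusted p = 0.626), and to Yes1, a Src family kinase, at 10.67 ± 0.08 in db/db and 10.23 ± 0.20 in normal GEC (0.44 ± 0.13, adjusted p = 0.677). Plcg1, the phospholipase that Kdr activates, had a change of 0.04 ± 0.12, and Nos3, the endothelial nitric oxide synthase downstream of Akt, one of 0.06 ± 0.14. Of the 38 genes 2 were higher and 4 lower in every db/db array, against 7.01% and 5.31% of all probesets, so the count is near the background.

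Other genes that VEGF induces or that mark tip cells, the leading cells of a sprout, had smaller changes than Esm1. The study had already reported Esm1 as raised in these data, and it ranked 7 among 12763 genes by height of the change. Nearly any list would therefore lie below it, and the comparison says little about VEGF targets. Of 24 such genes 18 were tested, and 0 rose and 0 fell in limma's test. Their changes ran from -0.50 to 0.60, 12 higher and 6 lower, with a median of 0.20 against 0.01 for all genes. Of these 18 genes 4 were higher and 3 lower in every db/db array, against 7.01% and 5.31% of all probesets. Trib1, a pseudokinase, was at 8.72 ± 0.09 in db/db and 8.30 ± 0.13 in normal GEC (log2 change 0.42 ± 0.10, adjusted p = 0.581), and Unc5b, a netrin receptor of tip cells, at 8.14 ± 0.07 in db/db and 7.76 ± 0.14 in normal GEC (0.37 ± 0.10, adjusted p = 0.646). Unadjusted p under 0.05 was reached by 3 genes with higher signal (Trib1, Unc5b and Apln) and by 2 with lower signal, the calcineurin inhibitor Rcan1 (-0.37 ± 0.14) and the growth factor Pdgfb (-0.50 ± 0.17), against 3.48% higher and 2.91% lower of all probesets. The immediate early targets Egr1, Egr3, Nr4a1 and Nr4a2 had changes of 0.42 ± 0.22, -0.05 ± 0.09, 0.27 ± 0.17 and -0.31 ± 0.28. Cxcr4, the highest of the 18, and Dll4 had changes of 0.60 ± 0.25 and 0.51 ± 0.25, with overlapping groups. Their intervals ran from -0.03 to 1.22 and from -0.12 to 1.14. Angpt2, Nr4a3, Kcne3, F3 and Ptgs2 were below the level of 100 in every array. Myc, a growth regulator, reached it in 2 db/db arrays and was not tested, at 7.23, 7.36 and 6.12 in db/db replicates 1 to 3, against 5.60, 5.74 and 5.51 in normal replicates. Every db/db array was above every normal array, and the mean difference of 1.29 was larger than any change among the 18 tested genes.

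Of 8 genes of capillary fatty acid transport, a process linked to Vegfb, 8 were tested, 0 rose and 0 fell in limma's test, and 3 with higher signal had an unadjusted p under 0.05, against 3.48% of all probesets. One of the 3, Gpihbp1, had been reported by the study as raised in these same data, so the count is not independent of them. The median change was 0.13, against 0.01 for all genes. The smallest p belonged to Gpihbp1, which carries lipoprotein lipase, at 12.15 ± 0.20 in db/db and 10.98 ± 0.11 in normal GEC (log2 change 1.17 ± 0.13, adjusted p = 0.256), and Cd36, a fatty acid transporter, at 11.59 ± 0.24 in db/db and 10.68 ± 0.05 in normal GEC (0.91 ± 0.14, adjusted p = 0.359). The fatty acid transport proteins Slc27a3 and Slc27a4, which VEGF-B is known to induce in endothelium, had changes of -0.10 ± 0.20 and 0.02 ± 0.17. Slc27a3 was near the level of 100, which it reached in only 3 arrays.

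**Figure D4:**
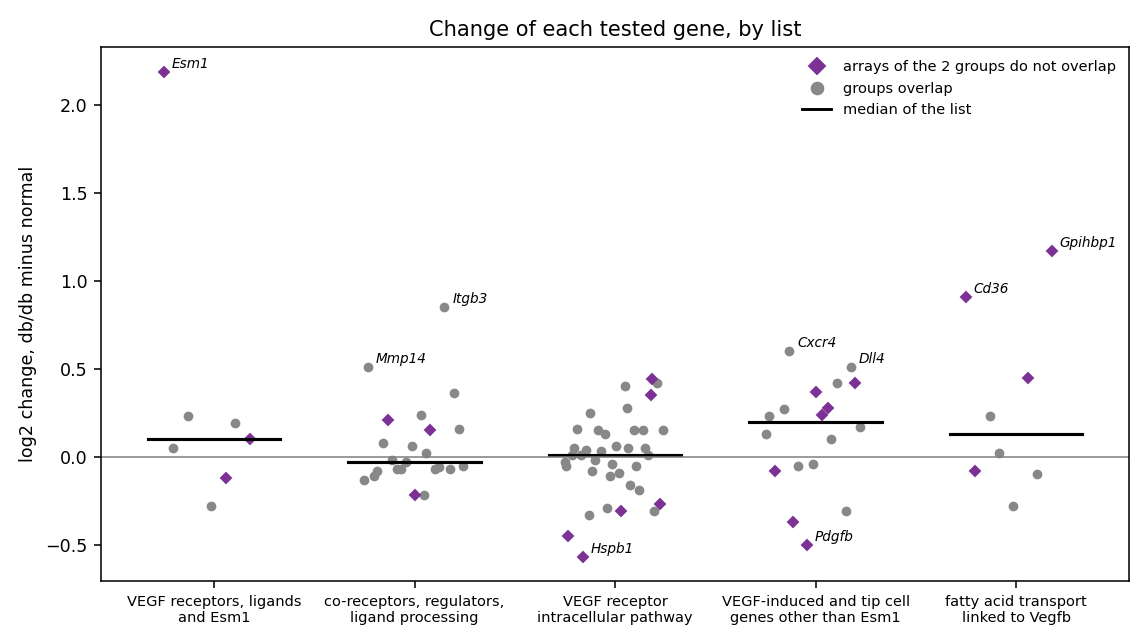
Log2 change, db/db minus normal (vertical axis), of each tested gene in the set of VEGF receptors, ligands and Esm1 and in the 4 lists of related genes, with each list's median (black bar). Purple diamonds mark genes whose db/db and normal arrays do not overlap, and Esm1 at 2.19 lies above every tested gene of the 4 lists, the highest of which is Gpihbp1 at 1.17. As Esm1 ranked 7 among 12763 genes by height of the change, nearly any list would lie below it.

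Over the 6 arrays the genes whose signal followed a member most closely were found by Pearson's r among the 12763 tested genes. For Esm1 these were Pnrc2 (r = 0.994), Hmgn1 (0.986) and Tacc3 (0.979), whose log2 changes were 0.17, 0.06 and 0.12, so they shared the shape of the Esm1 pattern but not its size. For Kdr they were Uty (r = 0.995), Adal (0.991) and Ppfibp1 (0.99), and for Flt1 Olfr1126 (0.99), Phgdh (0.987) and Kif1c (0.984). For Vegfa they were Msrb1 (0.997), Ndn (0.995) and Fcf1 (0.989), and for Flt4 Tyro3 (0.991), 1700034I23Rik (0.989) and Akirin1 (0.987). For Vegfb they were Htr1b (0.992), Vsir (0.992) and Sephs1 (0.991), for Vegfc 2810039B14Rik (0.988), Luc7l (0.984) and Usp30 (0.978), and for Pgf Rtl1 (0.997), Prss43 (0.995) and Hcar1 (0.995). With 6 arrays that share amplification and scaling, 25 to 53 genes reached an r of 0.95 or more with each of the 8 members, and none of these values carries a test.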

How the data were processed

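RNA of FACS-isolated Tie2-GFP positive GEC was amplified by Ribo-SPIA and hybridised to Affymetrix mouse whole-transcript arrays. The authors deposited log2 probeset signal. RMA in GeneSpring is the method the study states, but MAS5 is the tool in the submitters' processing notes, and which of them made the values is not settled. No further normalisation was applied, so each change is relative to other probesets of the array.

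Of 35557 probesets 21789 had a single gene symbol, 1621 several and 12147 none in the platform annotation. Probesets with at least 100 (linear, 6.64 on the log2 scale) in 3 or more arrays were tested (20661 probesets, 12763 genes). A gene was given by its probeset with the highest mean. Groups came from the sample labels and were compared with limma 3.58.1 in R 4.3.3 (lmFit and eBayes, two-sided, Benjamini-Hochberg adjustment over all tested probesets, threshold 0.05). Errors of single values are SD, errors of changes are the moderated SE, and intervals are 95%. Passing genes would be named in each list, otherwise the 2 with the smallest p, and for each member the 3 genes with the highest r. Other genes named in the lists were chosen after their values were seen, as were the pairs described within arrays. Members and lists were chosen with earlier results of these data known. Replicate numbers were not treated as pairs in the main fit, as the sample labels name no pairing. Alternatives were quantile normalisation, median centring, other level filters, an intensity trend, array weights, a replicate block, the methods' t-test, fewer probesets and leaving out each array. The fit was tested on simulated data. Promoters came from RefSeq, the first listed start of each gene. Python 3.11.15 with matplotlib 3.10.9 made the figures.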

Additional observations from a re-analysis of the deposited data

How the results depend on the processing

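The 7 tested members gave 118 values under 17 alternatives, of which 115 kept their direction and their side of the threshold, 3 reversed and 0 came to pass the test. Alternatives that changed only the filter, the error model, the block or the probesets left each estimate as it was, so no direction could turn there. As at most 1 probeset passed under any alternative, the side of the threshold was nearly fixed as well. Those reversed were Vegfb without normal replicate 3 (-0.10) and without diabetic replicate 3 (-0.02) and Vegfc without normal replicate 3 (-0.23), and for both the cause was not tested. Without 1 array Vegfb lay between -0.10 and 0.16 and Vegfc between -0.23 and 0.43, and Vegfc was not tested at a level of 200. Esm1 lay between 1.80 and 2.73 without 1 array and between 2.17 and 2.36 under the other alternatives, with adjusted p from 0.167 to 0.887. Kdr lay between 0.08 and 0.11 with adjusted p from 0.63 to 0.985, Flt1 between -0.15 and -0.06, Flt4 between 0.10 and 0.33, and Vegfa between -0.39 and -0.18. The prior that limma places on the variance set the error of Kdr, whose SE was 0.07 with a constant prior and 0.03 with an intensity trend. With the trend the interval of Kdr ran from 0.03 to 0.16 and excluded 0, while it included 0 with the constant prior.

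The number of probesets past the test was 0, and 1 with 1 probeset per gene or with only probesets that have a single gene symbol, in both cases Scn7a, which was lower in db/db GEC. Probesets whose groups did not overlap numbered 2546, 4011 with no level filter, and between 4211 and 4867 without 1 array, where fewer arrays had to be separated. The median change of the co-receptor list lay between -0.03 and 0.02 without 1 array, and that of the fatty acid transport list was 0.34 at a level of 200, where fewer genes were tested. In each of the 4 lists 0 genes passed under every alternative run. With the replicate block the log2 change of Esm1 was 2.19 (adjusted p = 0.689) and 0 probesets passed. The deviations of same-numbered arrays correlated between -0.0296 and 0.0353, and those of different-numbered arrays between -0.0468 and 0.0591. Same-numbered arrays thus shared no strong effect, but these values cannot tell whether their samples were matched or processed together. As each member had 1 probeset, the alternatives that average or exchange probesets of a gene gave no value, and Pgf lay between -0.01 and 0.08, with a test only where no level filter was set (0.04, adjusted p = 0.961).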
